A study of Mus musculus with 6 samples.

Results

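The horizontal cell genes described here are 9 genes chosen by name: the transcription factors Lhx1, Onecut1, Onecut2, Onecut3 and Prox1, the calcium-binding protein gene Calb1, the connexin gene Gja10, the adrenergic receptor gene Adra2a and the anion exchanger gene Slc4a3. A member was measured where a probe set of the array carried that symbol and no other. This gave 1 probe set each for 8 of the 9 genes, among 41345 probe sets on the array, 23521 of which carried a single symbol. Adra2a had no such probe set and was not analysed here. Gja10 had a probe set whose log2 value was under 5 on all 6 arrays, so it did not enter the test, and 7 members were tested among 15619 genes.

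Total RNA was taken from the retinas of male mice aged 17 postnatal days. The 3 knockout mice had the genotype Chx10Cre+/-;Atrx flox/y, with a Cre transgene named for the promoter of Chx10, a gene of retinal progenitors and bipolar cells, and a floxed copy of Atrx on their single X chromosome. The 3 wildtype littermates had the genotype Chx10Cre-/-;Atrx flox/y, so the floxed allele was present in both groups, and the transgene and the loss of Atrx cannot be told apart. Retinas of both eyes were pooled for each mouse after the lens had been removed. The series' design text places the height of the loss of amacrine and horizontal cells in these knockouts at this age, and the comparison shows how genes of horizontal cells stood in whole-retina RNA at that time.

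Horizontal cells are inhibitory interneurons of the outer retina. They contact the terminals of rods and cones, are coupled to each other by gap junctions, and feed signals from a wide field back onto photoreceptors. Onecut factors act early in the genesis of horizontal cells, Prox1 promotes the horizontal cell fate in progenitors, and Lhx1 directs the cells to their layer. Calbindin, the product of Calb1, is the usual stain for mature horizontal cells in the mouse, and Gja10 encodes the connexin of their gap junctions. Most of these genes are not private to horizontal cells: Onecut factors are also made in ganglion cells, Prox1 in AII amacrine cells, bipolar cells and lens, and Calb1 in amacrine and ganglion cells.

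ATRX is known to bind G-rich repeats, so the bases before the start of 2 members are shown as examples of the sequence in front of these genes. RefSeq windows of assembly GRCm38.p6 were matched by symbol for 6 of the 9 members. The 250 bases before the start are printed 5′ to 3′ on the strand of the gene, with runs of 3 or more G or of 3 or more C in capitals. Onecut1 and Prox1 are shown because no knockout value of either gene reached its wildtype values and a window was listed for both. The Onecut1 window lies at chr9:74861671-74861920 on the plus strand, and the Prox1 window, the first of 2 listed starts, at chr1:190170828-190171077 on the minus strand.
Onecut1: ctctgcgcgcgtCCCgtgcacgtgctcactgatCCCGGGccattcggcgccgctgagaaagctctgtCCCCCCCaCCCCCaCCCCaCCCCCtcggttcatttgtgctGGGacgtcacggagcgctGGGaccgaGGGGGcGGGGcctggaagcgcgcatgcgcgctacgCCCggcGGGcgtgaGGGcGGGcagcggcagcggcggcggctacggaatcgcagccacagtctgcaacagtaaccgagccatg
Prox1: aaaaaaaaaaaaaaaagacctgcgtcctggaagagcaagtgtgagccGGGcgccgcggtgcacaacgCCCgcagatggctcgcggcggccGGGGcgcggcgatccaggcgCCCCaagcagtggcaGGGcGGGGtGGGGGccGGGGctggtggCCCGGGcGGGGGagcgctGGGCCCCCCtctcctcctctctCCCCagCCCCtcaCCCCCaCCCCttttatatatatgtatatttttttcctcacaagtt

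The Onecut1 window held 15 such runs and the Prox1 window 17. At least as many runs were found in 15.6% and 9.1% of 32851 windows of the same length, whose median was 8. Both held a pattern of 4 runs of G, or of C, spaced by 1 to 7 bases, which 16.7% of all windows held. Slc4a3, with 19 runs, and the second start of Prox1, with 16, held it too, while Lhx1, with 9 runs, Adra2a, with 17, and Gja10, with 4, did not. The hexamers ATTGAT and ATCGAT, which resemble sites bound by Onecut factors, were sought on both strands. Neither was found in any of the 7 windows of members, and they were present in 6.72% and 0.728% of all windows. These matches describe the letters only, and binding was not measured.

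All values below are deposited log2 values, normalized between arrays, and differences are knockout minus wildtype, tested with limma and adjusted by the Benjamini-Hochberg method over the 15619 genes. The threshold for a call was an adjusted p of 0.05. None of the 7 tested members was called, where 0.826% of all tested genes were (129 genes: 54 lower and 75 higher in knockout). At an unadjusted p under 0.05 limma gave 3 of the 7 members, against 13.5% of all tested genes. The 3 were Onecut1, Prox1 and Onecut3. In each of them all 3 knockout values lay below all 3 wildtype values, which held for 9.58% of all tested genes. The members were chosen with earlier results of these data known, so these counts are not independent evidence. Lhx1, Onecut2, Calb1 and Slc4a3 had overlapping groups. In whole-retina RNA, fewer cells of a type and less RNA per cell cannot be told apart.

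**Figure D1:**
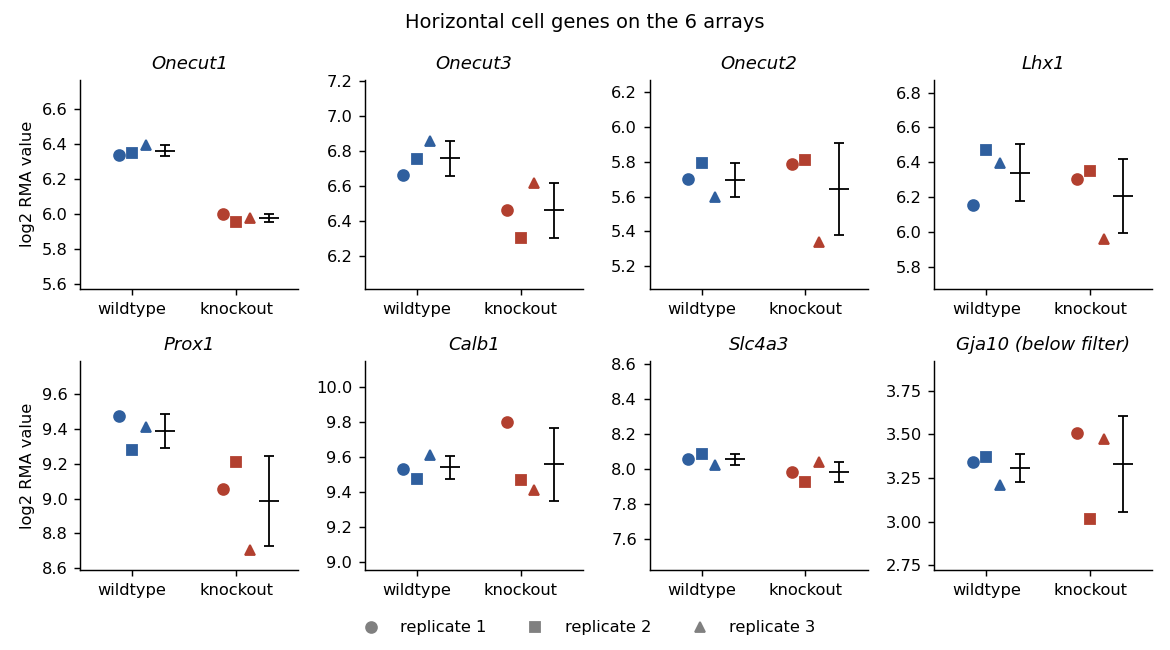
Log2 values of the 8 measured horizontal cell genes on each array, with wildtype in blue, knockout in red, a symbol for each replicate number and the mean ± SD of 3 arrays in black; every panel spans the same log2 range. The knockout values of Onecut1, Onecut3 and Prox1 lie below their wildtype values, and the groups of the other genes overlap.

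Onecut1 encodes a cut-homeodomain factor that horizontal cells need to form. Its wildtype values were 6.34, 6.35 and 6.40, and its knockout values were 6.0004, 5.95 and 5.98. The groups were tight and far apart: the range within each group was at most 0.058, and the gap between the groups was 0.34. The mean was 6.36 ± 0.03 in wildtype and 5.98 ± 0.02 in knockout retina (SD, n = 3 each), a log2 change of -0.38 with a 95% interval from -0.54 to -0.22. This is a 1.30-fold lower value in knockout. The adjusted p in limma was 0.055, and by unadjusted p the gene ranked 144 of 15619, just behind the 129 called genes. An exact permutation test of the 6 arrays (2-sided) gave p = 0.1, which is its lower limit for 3 against 3.

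The size of the Onecut1 difference hardly moved with the arrays used, from -0.40 without knockout 1 to -0.37 without wildtype 3. Its adjusted p moved more, from 0.076 to 0.242 with a single array left out. Limma's standard error of 0.070, which borrows spread from all genes, was larger than the 0.022 that the gene's own replicates gave. With the gene's own spread alone, an alternative chosen after seeing the data, the adjusted p was 0.103. Onecut1 was called with a log2 floor of 6, where 11709 genes were tested (adjusted p = 0.026), and after a second quantile normalization (0.04997). It passed the floor of 6 through its wildtype values, while knockout 2 and 3 (5.95 and 5.98) lay under it. The call at that floor is therefore not independent support.

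Onecut3, the third factor of the Onecut family, had wildtype values of 6.66, 6.75 and 6.86 and knockout values of 6.46, 6.30 and 6.62. The groups did not overlap, but the gap between them was only 0.04, and the highest knockout value, on knockout 3, lay next to the lowest wildtype value. The log2 change was -0.30 (95% interval -0.53 to -0.06, limma adjusted p = 0.264). It ranged from -0.38 without knockout 3 to -0.22 without knockout 2.

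Onecut2, which works alongside Onecut1 in horizontal cell genesis, had wildtype values of 5.70, 5.79 and 5.60. Its knockout values were 5.78, 5.81 and 5.34. Knockout 1 and 2 stood within 0.02 of the highest wildtype array, and only knockout 3 was lower than all wildtype arrays. The log2 change was -0.05 with a 95% interval from -0.35 to 0.25 (limma adjusted p = 0.902), so a value up to 1.28-fold lower in knockout lies within it. Without knockout 3 the change was 0.10. Whether Onecut2 and Onecut1 differed from each other in their response was not tested, and their intervals overlap.

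Lhx1, the LIM-homeodomain factor that sets the position of horizontal cells, had wildtype values of 6.16, 6.47 and 6.40 and knockout values of 6.30, 6.35 and 5.96. As with Onecut2, knockout 3 was the lowest of the 6 arrays, and the other knockout arrays stood inside the wildtype range. The log2 change was -0.13 with a 95% interval from -0.43 to 0.16 (limma adjusted p = 0.681). It was -0.01 without knockout 3 and -0.23 without wildtype 1, so its size rested on single arrays. A dimmer probe set shared by Lhx1 and the antisense gene Lhx1os, which reached the log2 floor of 5 on 1 of 6 arrays, had means of 4.77 ± 0.21 in knockout and 4.76 ± 0.15 in wildtype retina (SD, n = 3 each). It was not tested, and its signal cannot be assigned to either gene alone.

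Prox1 encodes a homeodomain factor that pushes progenitors to leave the cell cycle and become horizontal cells, and it remains in the mature cells. Its wildtype values were 9.47, 9.28 and 9.41, and its knockout values were 9.05, 9.21 and 8.70. Knockout 3 was again the lowest array, and knockout 2 lay 0.07 below the lowest wildtype value. The log2 change of -0.40 (95% interval -0.70 to -0.10) was 1.32-fold, with a limma adjusted p of 0.245. The change ranged from -0.51 without knockout 2 to -0.26 without knockout 3, with adjusted p-values between 0.117 and 0.518.

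Lens genes differed between arrays, and Prox1 is also a gene of lens fibre cells. The mean of 13 tested lens genes of the 14 listed reached 9.78 on knockout 2 and 11.155 on wildtype 1, while the remaining 4 arrays had 5.66 to 6.09. The log2 of their summed signal ran from 9.61 to 14.66 in knockout and from 9.64 to 15.69 in wildtype retina. The 2 lens-rich arrays also had the highest Prox1 value of their own genotype. Without both, the log2 change of Prox1 was -0.47 (limma adjusted p = 0.266), and with the lens mean as a covariate it was -0.38. With all 6 arrays and no covariate the Prox1 change was -0.40. The part of lens in the Prox1 value was not tested. Onecut1 had a change of -0.38 without the 2 lens-rich arrays and -0.39 with the covariate.

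**Figure D2:**
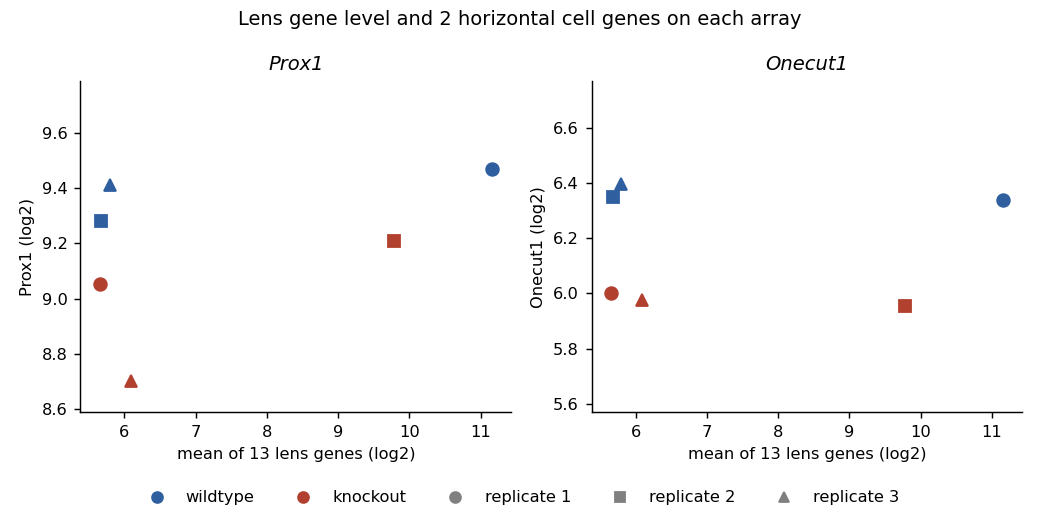
Mean log2 value of 13 lens genes on each array (horizontal axis) against the log2 value of Prox1 and Onecut1 (vertical axes, same span), with knockout in red and wildtype in blue. Knockout 2 and wildtype 1 stand apart at 9.78 and 11.155 on the lens axis, and each has the highest Prox1 value of its genotype. In both Prox1 and Onecut1 the knockout values lie below the wildtype values. The lens-rich level holds a single array of each genotype.

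Calb1 encodes calbindin, which buffers calcium in mature horizontal cells. Its wildtype values were 9.53, 9.47 and 9.61, and its knockout values were 9.80, 9.47 and 9.41. Knockout 1 was the highest of the 6 arrays and knockout 3 the lowest, so the knockout group enclosed the wildtype group. The log2 change was 0.02 (95% interval -0.24 to 0.27, limma adjusted p = 0.955). A value more than 1.18-fold lower or 1.21-fold higher in knockout lies outside this interval. Without knockout 1 the change was -0.10, and it was -0.02 after a second quantile normalization and -0.01 without wildtype 2. Ganglion cells also make calbindin, and the log2 of the summed signal of 7 tested ganglion cell markers of the 8 listed was likewise highest on knockout 1, where it was 12.35. It was 11.98 to 12.00 on the other 5 arrays. The bright probe set of Sncg, at 11.58 on knockout 1 and 10.91 to 11.02 elsewhere, carried most of this sum, while Rbpms was lowest on knockout 1 (8.21). The part of ganglion cells in the Calb1 value was not tested; the 2 genes were singled out after their values were seen.

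Slc4a3, a chloride-bicarbonate exchanger also known from Muller glia, had wildtype values of 8.06, 8.09 and 8.02 and knockout values of 7.98, 7.93 and 8.04. Knockout 3, the highest of its group here, exceeded wildtype 3 by 0.01, and this alone made the groups overlap. The log2 change was -0.07 (95% interval -0.24 to 0.09, limma adjusted p = 0.695). It went from -0.10 without knockout 3 to -0.04 without knockout 2. Of 7 tested Muller glia markers none was called, 3 changes were negative and 4 positive, and the median was 0.04. Their mean log2 value ran from 9.67 to 9.78 in knockout and from 9.73 to 9.75 in wildtype retina, with overlap. The log2 of their summed signal, which follows the brightest probe sets, ran from 13.24 to 13.33 and from 13.36 to 13.40, without overlap. The part of Muller glia in the Slc4a3 value was not tested.

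Gja10 had values of 3.34, 3.37 and 3.21 in wildtype and 3.51, 3.02 and 3.48 in knockout retina. Every one of them lay under the log2 floor of 5, and the wildtype values stood inside the knockout range. When no filter was applied the log2 change was 0.03 (95% interval -0.30 to 0.35, limma adjusted p = 0.968 over 22180 genes). Whether this connexin gene changed cannot be told from values this low. Of the genes most often used to mark horizontal cells, this one was thus not measured above the floor, while Calb1, Lhx1 and Onecut1 were.

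Of the 7 tested members 6 had negative changes, against 49.1% of all tested genes, and the median change was -0.13, against 0.00 over all tested genes. Since the members were chosen with earlier results of these data known, such counts are not independent evidence. The lowest of the 6 values was on a knockout array for all 7 members, 4 times on knockout 3 and 3 times on knockout 2, which held for 56.4% of all tested genes. The highest value was on a wildtype array for 5 members, and on knockout 2 for Onecut2 and knockout 1 for Calb1. The knockout SD exceeded the wildtype SD in 6 members, with Onecut1 as the exception. This was common on these arrays, at 67% of all tested genes. The mean log2 value of the 7 members ran from 7.15 to 7.34 in knockout and from 7.42 to 7.47 in wildtype retina, without overlap. The largest changes in this mean were those of Prox1 (-0.40), Onecut1 (-0.38) and Onecut3 (-0.30), and the groups of the other members overlapped. Such separation was not particular to the members. Means of their relatives (7.53 to 7.63 against 7.65 to 7.70) and of amacrine genes (6.10 to 6.39 against 6.82 to 6.94) were also lower in knockout without overlap. The mean of rod genes was higher in knockout without overlap (11.63 to 11.66 against 11.49 to 11.58), and the means of the remaining lists overlapped. The log2 of the members' summed signal, which the bright probe sets of Calb1 and Prox1 dominate, ran from 10.67 to 10.94 and from 10.92 to 11.01, with overlap. Levels of different members were not compared, since probe sets differ in their response.

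**Figure D3:**
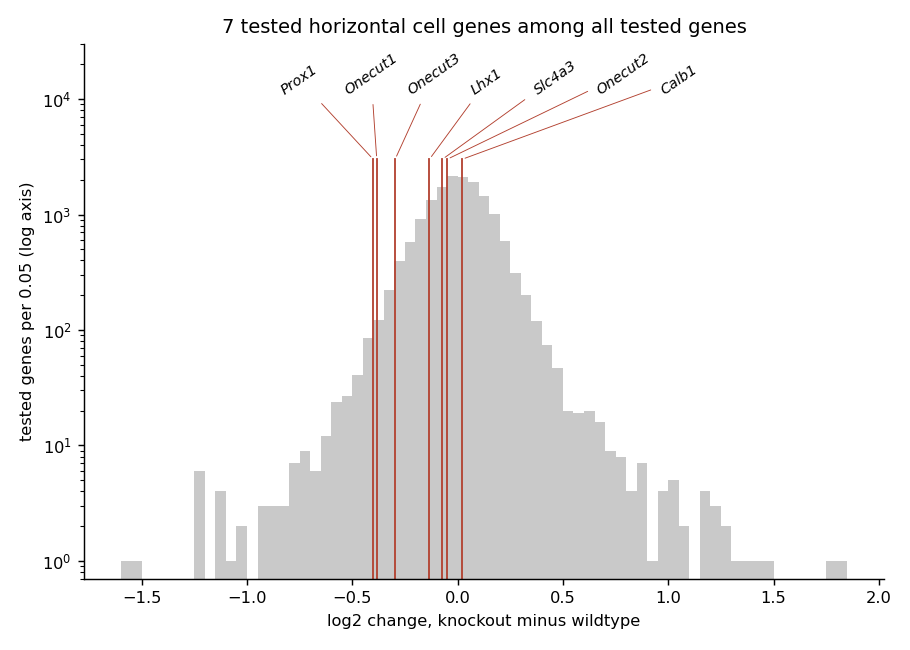
Number of tested genes (log axis) per 0.05 of log2 change, knockout minus wildtype, for 15619 genes in grey, with the 7 tested horizontal cell genes as red lines. Prox1 (-0.40), Onecut1 (-0.38) and Onecut3 (-0.30) lie in the lower tail, and the other 4 lie near the centre.

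**Figure D4:**
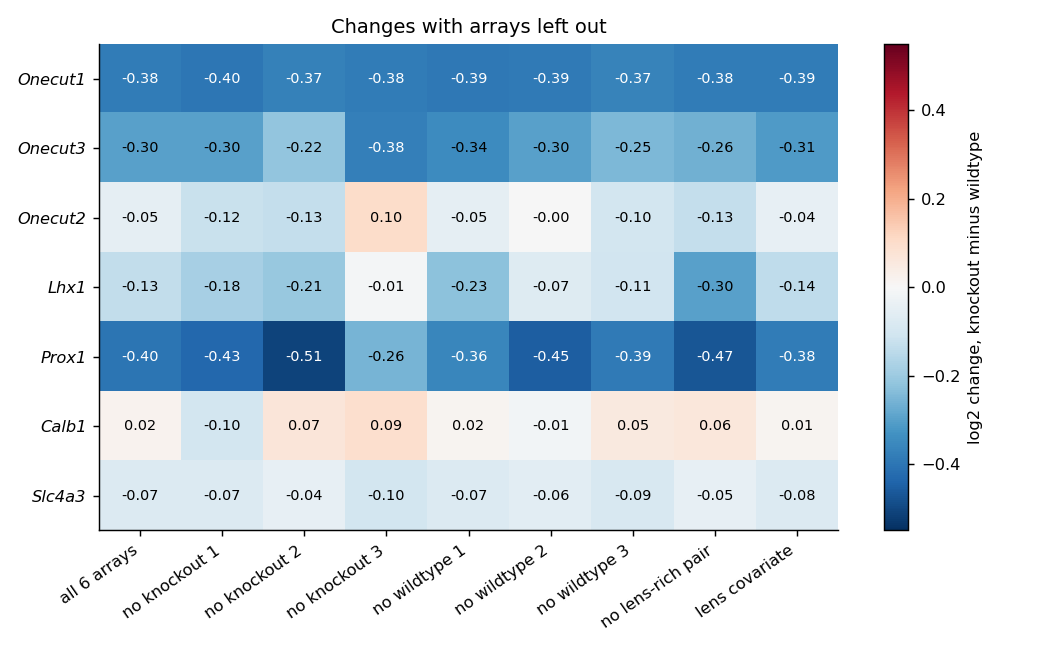
Log2 change of each tested member (rows), knockout minus wildtype, with all 6 arrays, with each array left out, without the 2 lens-rich arrays and with the lens mean as a covariate (columns); blue is lower in knockout. The row of Onecut1 is nearly constant, from -0.40 to -0.37, while Onecut2 turns to 0.10 without knockout 3 and Calb1 to -0.10 without knockout 1.

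Other genes of horizontal cell biology were taken from 3 lists. The list of specification factors held 9 genes, 8 of them tested; Ptf1a, which commits cells to horizontal and amacrine fates, was too dim. None was called, 5 changes were negative and 3 positive, and the median was -0.08. Tfap2b, made in amacrine and horizontal cells, changed by -0.52 on the log2 scale (SE 0.12, limma adjusted p = 0.104), with knockout values of 9.35, 9.77 and 9.37 below wildtype values of 9.97, 10.03 and 10.07. Tfap2b passed the threshold without knockout 2 (adjusted p = 0.020). The nuclear receptor gene Rorb, which acts upstream of Ptf1a, was at 0.21 (adjusted p = 0.389) and the bHLH factor Neurod4 at 0.14 (0.446). In these last 2 genes all knockout values lay above all wildtype values, as in 10.7% of all tested genes.

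The list of further genes from mature horizontal cells held 13 genes, all tested. None was called, 10 changes were negative and 3 positive, and the median was -0.06. Nefh, the heavy neurofilament subunit, had a log2 change of -0.40 (SE 0.09, limma adjusted p = 0.097), with knockout values of 8.77, 9.02 and 8.92 below wildtype values of 9.35, 9.24 and 9.32. The other neurofilament genes of the list had overlapping groups, with Nefm at -0.27 (limma adjusted p = 0.334) and Nefl at -0.04 (0.863). The tropomyosin gene Tpm3 was at 0.28 (adjusted p = 0.195), with all knockout values above all wildtype values. Slc32a1, the vesicular transporter that loads GABA and glycine, was at -0.37 (adjusted p = 0.318). Neurofilaments are also ganglion cell genes and Slc32a1 an amacrine gene.

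**Figure D5:**
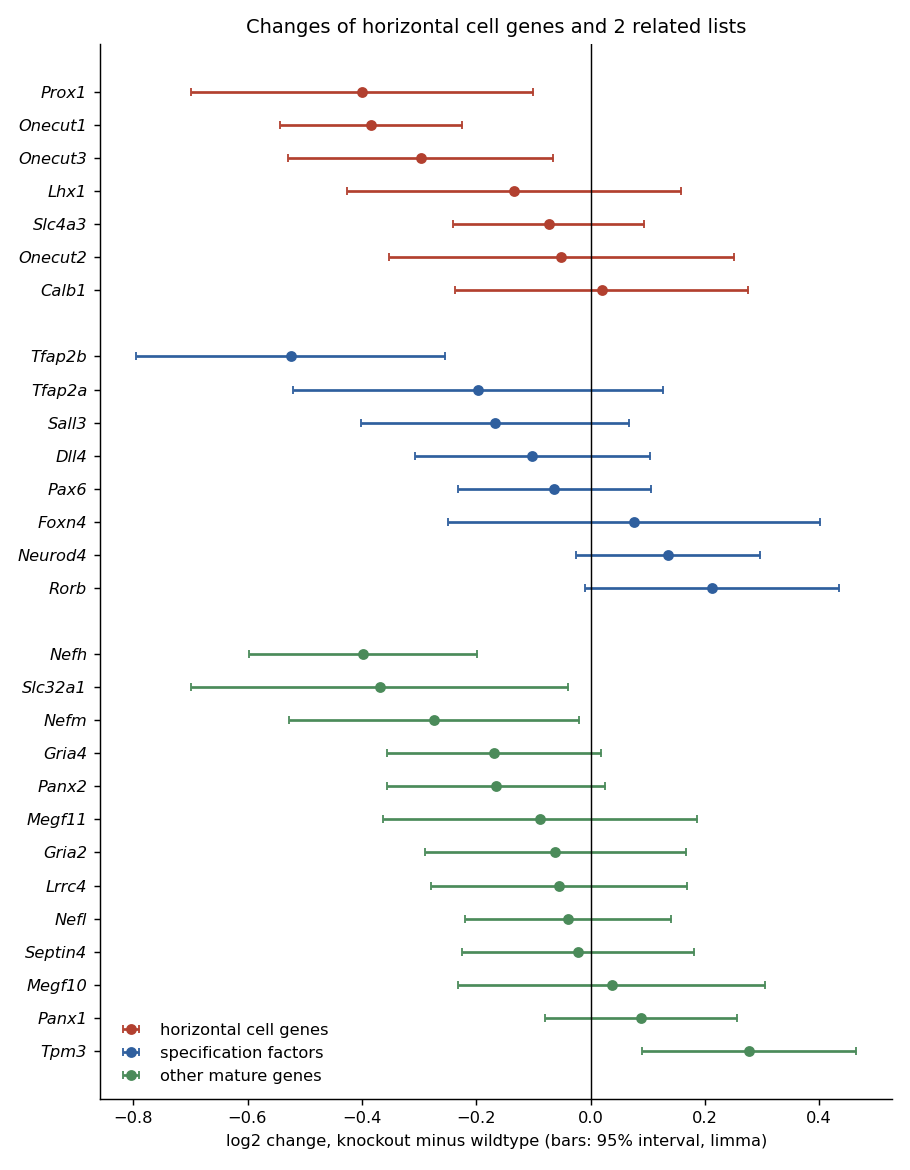
Log2 changes, knockout minus wildtype, with 95% intervals from limma for the 7 tested horizontal cell genes (red), 8 specification factors (blue) and 13 other genes of mature horizontal cells (green). None was called after adjustment over all genes; the intervals of Onecut1, Prox1, Onecut3, Tfap2b, Nefh, Slc32a1 and Nefm lie below 0 and that of Tpm3 above it.

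Relatives of the members formed the third list, with 17 of 22 genes tested. None was called, 10 changes were negative and 7 positive, and the median was -0.08. Gjd2, the connexin of AII amacrine and cone bipolar gap junctions, had a log2 change of -0.29 (SE 0.07, limma adjusted p = 0.137), with knockout values of 8.54, 8.40 and 8.50 below wildtype values of 8.75, 8.78 and 8.79. Slc4a8, a sodium-driven bicarbonate exchanger related to Slc4a3, was at -0.42 (adjusted p = 0.233) and was called without knockout 2 (-0.57, adjusted p = 0.043). Pvalb, which encodes the calcium-binding protein parvalbumin, was at -0.41 (adjusted p = 0.246). In both genes all knockout values lay below all wildtype values.

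Amacrine cells share Prox1, Calb1, Tfap2b and Slc32a1 with horizontal cells, and most of their tested markers stood lower in knockout retina. Of 10 listed amacrine genes 9 were tested. Of these, 6 were called lower and 3 were not called, where 0.826% of all tested genes were called in either direction. The changes were negative in 8 and positive in 1 (Tfap2c, 0.06), with a median of -0.59. These genes were listed with earlier results of these data known, so the counts are not independent evidence. The count of 6 became 1 without knockout 1, wildtype 2 or wildtype 3, 2 without knockout 3 and 4 without wildtype 1. The log2 of their summed signal ran from 9.45 to 9.78 in knockout and from 10.19 to 10.32 in wildtype retina, without overlap. The part of amacrine cells in the values of Prox1 and the other shared genes was not tested. The difference between the amacrine and horizontal cell lists was not tested either. Of 4 tested bipolar markers, cells that also make Prox1, none was called, and their summed signal ran from 11.18 to 11.43 in knockout and from 11.36 to 11.49 in wildtype retina. Rod markers, of which 8 were tested and none called, had a median change of 0.12, and their summed signal ran from 15.17 to 15.19 in knockout and from 15.08 to 15.16 in wildtype retina.

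The genes whose profile over the 6 arrays was most like that of Onecut1 were Tmem91, Gsg1l, Dgat2, Optc and Anxa6. Likeness was the mean absolute difference between the profiles after each gene's own mean was taken off. It was 0.022 for Tmem91 and Gsg1l and 0.030 to 0.033 for the other 3, against a median of 0.204 over 15612 genes. A flat profile would score 0.192. Because these 5 genes were picked for likeness on the same arrays, lower knockout values follow from the choice. Their changes and calls are therefore not independent evidence. The log2 changes ran from -0.33 for Anxa6 to -0.44 for Optc. Gsg1l, which encodes an auxiliary subunit of AMPA receptors, fell (-0.41, limma adjusted p = 0.045), as did Optc, the vitreous protein opticin (adjusted p = 0.042). Both calls were lost whichever single array was left out, with adjusted p-values from 0.065 to 0.205.

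The targeted gene Atrx had knockout values of 8.42, 8.72 and 8.33 and wildtype values of 9.04, 8.86 and 9.17, a log2 change of -0.53 (SE 0.12, limma adjusted p = 0.115). Each knockout value lay below all wildtype values, and the position of the probes relative to the floxed segment was not examined. Across the tested genes the arrays correlated with Pearson's r between 0.975 and 0.993, and array medians were 5.57 to 5.64. Leaving out an array changed the total of 129 called genes: it was 58 without knockout 1, 141 without knockout 2, 78 without knockout 3, 62 without wildtype 1, 25 without wildtype 2 and 38 without wildtype 3.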

How the data were processed

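Whole retina of 3 Atrx knockout and 3 wildtype mice was measured on 6 Affymetrix mouse gene arrays, with 100 ng of total RNA as input (per the labels). The deposited values are log2 expression per probe set, which the authors computed by RMA (per the submitters' processing notes); this method corrects background, normalizes by quantiles and summarises probes, so a change in total RNA per cell is not seen and dim differences are compressed. The RMA version was not given in the sources used here, nor was the annotation build.

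Of 41345 probe sets, 23521 carried 1 symbol in the platform annotation, 1814 several and 16010 none there; 23328 of the first matched the RefSeq gene table of GRCm38.p6, which updated symbols. A probe set was tested with a log2 value of at least 5 on at least 3 arrays, and the one with the highest mean stood for its gene, giving 15619 genes. limma 3.58.1 in R 4.3.3 (lmFit, eBayes, genotype only, 2-sided, Benjamini-Hochberg over all genes) gave changes, standard errors (SE) and 95% intervals; the median interval reached 0.22 to each side. The number of arrays limits the precision, and p-values measure the spread between these mice. The procedure was tested on simulated data.

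The members and gene lists were chosen with earlier results of these data known. The text names every member, Atrx, the 5 genes most like Onecut1 and, from each of the 3 related lists (where none was called), the 3 genes of smallest unadjusted p. Nefm and Nefl are named beside Nefh, and Sncg and Rbpms of the ganglion cell list were added after their values were seen. Marker lists of other cell types are given as summaries. The mean of 8 tested pigment epithelium genes ran from 8.81 (knockout 1) to 9.87 in knockout and from 9.27 to 10.10 in wildtype retina. That of 6 endothelial genes ran from 7.42 to 7.45 and from 7.41 to 7.49. No gene of either list was called. The part of pigment epithelium in the values of the members was not tested. Replicate numbers are not stated to pair mice. Figures were drawn with matplotlib 3.10.9.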

Additional observations from a re-analysis of the deposited data

How the results depend on the processing

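No member was called under 16 of 18 alternatives, and 1 (Onecut1) with a log2 floor of 6 and 1 (Onecut1) after a second quantile normalization. Onecut1 passed the floor of 6 through its wildtype values, so that call is not independent support. Onecut1, Onecut3, Prox1, Lhx1 and Slc4a3 kept negative changes in every alternative run. Onecut2 ranged from -0.13 to 0.10 with an array left out. Calb1 ranged from -0.10 to 0.092 with an array left out, and was -0.016 after a second quantile normalization. The 129 called genes became 74 without a filter, 209 with a floor of 6, 282 with an intensity trend and robust spread, 45 (of 74 called probe sets) when 25961 probe sets were tested together, 36 without the 2 lens-rich arrays, 1 with each gene's own spread (added after seeing the data) and 25 to 141 with an array left out. Of the related genes 0 were called, 2 with the trend (Tfap2b and Nefh), 1 with array weights (Tfap2b) and 0 to 2 with an array left out. With the replicate number as a block 0 members and 68 genes were called, and Onecut1 had an adjusted p of 0.214. The numbers were not taken as pairs, since they are not stated to pair mice. Deviations of same-numbered mice had correlations of -0.27, -0.38 and -0.06. With 3 arrays per genotype and different numbers on the 2 lens-rich arrays, these values cannot decide whether mice were paired. The cause of these shifts was not tested, beyond the fewer arrays or other gene numbers named. Differences under about 0.22 on the log2 scale are within the median interval of 3 arrays against 3.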
